A study of Mus musculus with 35 samples.

Results

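The transcripts followed here belong to 9 genes through which noradrenaline acts on brown fat and through which cyclic AMP (cAMP) is made and broken down. They are the adrenergic receptors Adrb1, Adrb3 and Adra1a, the stimulatory G protein α subunit Gnas, the adenylyl cyclase Adcy3, the phosphodiesterases Pde3b, Pde4b and Pde4d, and the regulator of G protein signaling Rgs2. They were chosen by name, from their place in the pathway, with earlier results of these data known. They are 9 of the 55421 genes in the count table. Each name matched a single gene identifier, and all 9 passed the filter on low counts in every comparison.

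Noradrenaline released by sympathetic nerves reaches brown adipocytes through β-adrenergic receptors, of which ADRB3 is largely restricted to adipocytes and ADRB1 is shared with many other cells. These receptors couple to the stimulatory G protein, which switches on adenylyl cyclases. The cAMP they produce activates protein kinase A (PKA), and PKA drives lipolysis, heat production by UCP1 and transcription through CREB. Phosphodiesterases end the signal by hydrolyzing cAMP. ADRA1A takes another route, through Gq and calcium, and RGS2 is best known for limiting Gq signaling.

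Interscapular brown adipose tissue (iBAT) came from male C57BL/6J mice, 9 to 10 weeks old, of which 5 stayed at room temperature and 5 each were kept at 6 °C for 6 hours or for 1, 2, 3, 4 or 5 days. The labels name no transgene or other treatment for the 35 mice, and each mouse gave its own library, made from the RNA of 1 iBAT pad with a kit that reads the 3′ ends of polyadenylated transcripts. Mice in the cold were housed singly in static cages without nesting material and controls were kept at 24 °C, so cold and housing cannot be told apart. Every duration was set against the same 5 controls, so the comparisons with room temperature are not independent of each other. The tissue was sequenced whole, and a lower level can stand for fewer cells of a type or for less RNA per cell, which cannot be told apart here.

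Libraries held 3846016 to 6047247 counts, and 1 read was worth 0.165 to 0.26 CPM, the unit in which counts are scaled to the library total. Mitochondrial genes took 33.6% to 46.2% of the counts and the nuclear gene Gm42418 took 7.81% to 16.3%. No library differed from another of its group by so little that both could be the same library. The brown adipocyte uncoupling protein Ucp1, read as a check of the cold response, was at 1897 ± 605 CPM (SD, n = 5) in controls and above every control in each of the 30 cold-exposed mice, with group means of 5555 to 7842 CPM. Levels below are CPM after TMM scaling over all 35 libraries, where TMM is a factor that corrects for differences in RNA composition. Changes are log2 fold changes from edgeR's quasi-likelihood test, with standard errors (SE), and a gene was called where its Benjamini-Hochberg adjusted p over all genes tested was below 0.05.

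Because PKA acts on transcription through CREB, the 250 bases before the start sites of the members are shown for those whose levels moved furthest. RefSeq's promoter table (GRCm38.p6) held 13 such windows for 6 of the members, while Adrb3, Adra1a and Pde3b had no entry. The windows were searched on both strands for the full cAMP response element TGACGTCA, for its core TGACG, which the full element contains, and for AAAGGTCA, the element bound by NR4A receptors. Capitals mark the matches, and all sequences run 5′ to 3′ on the strand of the gene.
Adcy3, chr12:4133147-4133396 (plus strand): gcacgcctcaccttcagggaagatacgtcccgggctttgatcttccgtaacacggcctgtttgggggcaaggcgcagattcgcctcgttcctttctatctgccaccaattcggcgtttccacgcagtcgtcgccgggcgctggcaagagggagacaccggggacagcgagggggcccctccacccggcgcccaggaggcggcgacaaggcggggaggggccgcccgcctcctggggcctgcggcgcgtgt
Adcy3, second start, chr12:4133903-4134152 (plus strand): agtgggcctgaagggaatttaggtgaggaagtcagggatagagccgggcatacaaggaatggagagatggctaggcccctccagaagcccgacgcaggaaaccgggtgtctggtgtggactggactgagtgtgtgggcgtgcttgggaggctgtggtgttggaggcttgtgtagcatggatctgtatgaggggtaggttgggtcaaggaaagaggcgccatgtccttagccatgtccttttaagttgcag
Pde4d, chr13:108653927-108654176 (plus strand): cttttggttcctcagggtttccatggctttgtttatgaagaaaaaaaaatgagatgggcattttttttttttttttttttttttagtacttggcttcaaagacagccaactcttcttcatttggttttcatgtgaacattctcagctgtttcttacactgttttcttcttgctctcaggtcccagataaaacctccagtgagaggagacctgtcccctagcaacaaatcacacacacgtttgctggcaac
Pde4b, chr4:102421305-102421554 (plus strand): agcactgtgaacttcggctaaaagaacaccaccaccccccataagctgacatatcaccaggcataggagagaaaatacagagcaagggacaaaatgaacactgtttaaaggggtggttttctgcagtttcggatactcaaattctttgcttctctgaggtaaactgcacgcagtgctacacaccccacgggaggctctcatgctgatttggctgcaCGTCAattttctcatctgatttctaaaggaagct
Rgs2, chr1:144004150-144004399 (minus strand): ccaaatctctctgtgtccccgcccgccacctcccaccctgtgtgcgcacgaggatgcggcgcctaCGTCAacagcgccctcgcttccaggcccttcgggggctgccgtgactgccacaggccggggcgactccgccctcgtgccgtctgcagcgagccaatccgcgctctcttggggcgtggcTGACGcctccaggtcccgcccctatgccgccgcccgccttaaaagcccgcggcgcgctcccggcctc

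No window of a member held the full element or the NR4A element, which were in 1.55% and 1.34% of all 32817 promoter windows of this length. The core was in 17.7% of all windows and in 6 of the 13 windows of the members, belonging to Adrb1, Gnas, Pde4b and Rgs2. Among them are overlapping Gnas windows that hold the same site, at -38 and -57 from their starts. Counted from the start site, its first base lay at -67 on the plus strand of the gene and at -185 on the opposite strand in Rgs2, and at -34 on the opposite strand in the Pde4b window shown, while the other 3 Pde4b windows held none. In Adrb1 it lay at -90. Both Adcy3 windows and the Pde4d window held none of the letters searched, which says nothing of other elements or of regions farther away. The annotation gives Adcy3 4 and Pde4d 12 coding start sites, and for these genes only the windows shown were searched. The Adcy3 windows were GC rich, with 68.8% and 56.0% G or C, as was that of Rgs2 with 72.4%, whereas the Pde4d window, at a start inside the gene, had 38.8%.

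The 9 genes differed in the durations at which they were called and in direction. After 6 hours 3 members were called higher and 1 lower, where 21.5% of all genes tested were called higher and 21.0% lower. After 1 day 4 were higher and none lower, against 18.9% and 17.8% of all genes. After 2 days 4 were higher and 2 lower, with 16.4% and 14.7% of all genes, and after 3 days 3 were higher and 4 lower, with 18.3% and 15.5%. After 4 days 4 were higher and 3 lower, with 19.4% and 18.6%, and after 5 days 4 were higher and 2 lower, with 20.2% and 18.6%. The median log2 fold change of the 9 members ran from -0.09 after 6 hours to 0.44 after 2 days, and that of all genes tested stayed between -0.03 and -0.01. Scaling by library size alone, without TMM, moved the median of all genes to -0.21 after 6 hours and turned the calls over all genes from 2280 higher and 2225 lower into 1342 higher and 3399 lower. Under that scaling some values that TMM left uncalled were called lower, those of Adra1a, Gnas and Pde3b after 6 hours, Adra1a, Pde3b and Rgs2 after 1 day, Adrb1 after 2 days, and Adrb1 and Pde3b after 5 days.

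**Figure D1:**
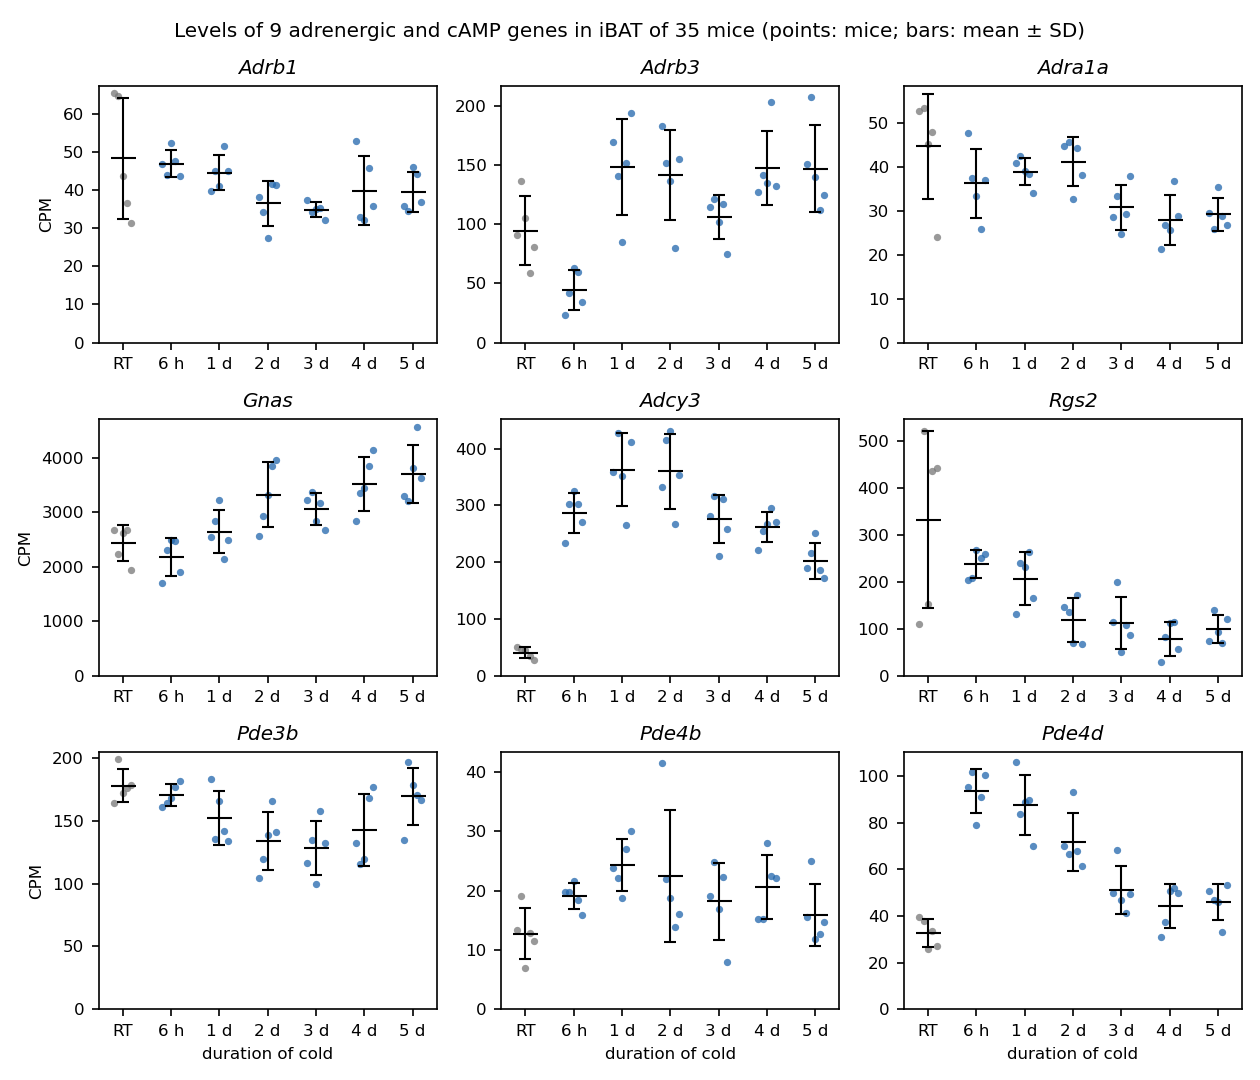
Levels in CPM (linear axes from 0) of the 9 genes in each mouse at room temperature (RT, grey) and after 6 hours to 5 days of cold (blue), with points for mice and bars for the mean ± SD of 5 mice. Adcy3 was above every control in all 30 cold-exposed mice, Pde4d was highest after 6 hours, Adrb3 was lowest after 6 hours, and the 5 Rgs2 controls spread from 109 to 521 CPM.

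The largest change of the 9 was that of Adcy3, a membrane adenylyl cyclase (chromosome 12, bases 4133103 to 4213525, GRCm38). At room temperature its level was 50.9, 46.5, 44.8, 35.2 and 27.5 CPM in the 5 mice. After 6 hours the values were 234, 302, 325, 303 and 271 CPM, and after 1 day they were 358, 428, 352, 266 and 412 CPM. No mouse of these groups came near the controls. After 2 days the mice stood at 333, 415, 432, 268 and 354 CPM and after 3 days at 281, 316, 212, 311 and 259 CPM. After 4 days they stood at 222, 255, 267, 296 and 270.3 CPM and after 5 days at 189.7, 216, 251.8, 186 and 172 CPM. The level was highest after 1 and 2 days and lower again by 5 days, but the control range was not reached at any time.

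Adcy3 rose 6.88-fold after 6 hours (log2 fold change 2.78, SE 0.15, edgeR adjusted p = 2.8e-10) and 8.76-fold after 1 day (3.13, SE 0.17, adjusted p = 2.7e-09). After 5 days it was still 4.88-fold above controls (2.29, SE 0.15, adjusted p = 4.8e-09). The call held at every duration whichever single mouse was left out, with log2 fold changes between 2.18 and 3.23. The annotation gives Adcy3 4 coding transcripts with 4 start sites and 2 ends, and a count of 3′ reads does not tell the starts apart. An exon of Adcy3 overlaps an exon of Cenpo on the opposite strand, and the strand setting of the read counting is not given in the sources used here. Cenpo had 12 to 25 counts per control library and at most 13 in any cold-exposed library, against 153 to 267 and 853 to 2408 for Adcy3.

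Gnas, which encodes the α subunit that couples β receptors to the cyclase, had by far the most reads of the 9 genes (chromosome 2, bases 174284320 to 174346744). Control mice had 2677, 2238, 2629, 2674 and 1943 CPM, mice after 6 hours 1713, 2306, 2499, 2470 and 1902 CPM and mice after 1 day 2551, 2833, 3220, 2153 and 2489 CPM. These 3 groups overlapped, and neither early duration passed the test (log2 fold changes -0.19 and 0.10, SE 0.12 and 0.12, edgeR adjusted p = 0.212 and 0.537). After 4 days the values were 2847, 3350, 3450, 3847 and 4137 CPM and after 5 days 3295, 3217, 3813, 4567 and 3638 CPM, all above the highest control. Gnas rose by a log2 fold change of 0.51 (SE 0.12, adjusted p = 0.00274) after 4 days and of 0.58 (SE 0.13, adjusted p = 0.00129) after 5 days. After 2 days the mice had 2569, 2939, 3324, 3849 and 3960 CPM and after 3 days 3233, 3380, 2844, 3169 and 2679 CPM, with 1 mouse after 2 days below the highest control. The smaller rises after 2 days (0.44, adjusted p = 0.0313) and 3 days (0.32, adjusted p = 0.0366) depended on single mice. The call after 2 days was lost without room temperature mouse 2 or 5 or without cold mouse 3, 4 or 5 (0.36 to 0.51 over all 10 omissions), and the call after 3 days without room temperature mouse 2 or 5 or without cold mouse 1, 2 or 4 (0.25 to 0.37). Scaling by library size alone ended both calls (0.20 and 0.19) and turned the uncalled value after 1 day to -0.12. The locus has 16 annotated coding transcripts from 9 start sites, several of which encode other proteins than the α subunit, and the count adds them together.

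Among the receptors, Adrb3 had the widest swing (chromosome 8, bases 27225776 to 27250616). Controls had 90.6, 137, 105, 59.0 and 80.8 CPM, and after 6 hours the values were 22.9, 41.8, 63.0, 59.5 and 34.1 CPM. Of the mice after 6 hours, 3 were below every control. After 1 day the order had turned, with 169.8, 141, 85.2, 152 and 194 CPM, of which 4 values were above every control. After 2 days the mice had 183, 152, 136, 80.3 and 155 CPM and after 3 days 114, 121, 102, 117 and 75.2 CPM, the latter all within the range of the controls. After 4 days they had 127, 142, 135, 203 and 132 CPM and after 5 days 151, 208, 139.6, 112 and 125 CPM, and 2 and 3 of these mice, respectively, exceeded the highest control.

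Adrb3 fell to 0.460 of the control level after 6 hours (log2 fold change -1.12, SE 0.23, edgeR adjusted p = 8.2e-04). It was higher than in controls after 1 day (0.63, SE 0.21, adjusted p = 0.0267), 4 days (0.62, SE 0.18, adjusted p = 0.0117) and 5 days (0.61, SE 0.19, adjusted p = 0.0148). The value after 2 days just missed the threshold (0.57, SE 0.21, adjusted p = 0.0524) and was called without room temperature mouse 2 or cold mouse 4 (0.43 to 0.73 over all omissions) and by DESeq2 (adjusted p = 0.0457). After 3 days the log2 fold change was 0.16 (SE 0.18, adjusted p = 0.534). The rise after 1 day lost its call without room temperature mouse 4 or 5 or without cold mouse 1 or 5 (0.50 to 0.81), whereas the fall after 6 hours was called in all 10 omissions (-1.27 to -0.95). Scaling by library size alone ended the calls after 1 and 5 days, with log2 fold changes of 0.43 and 0.38. An antisense gene, Gm45470, overlaps an Adrb3 exon and had 8 to 35 counts per library, lowest after 6 hours (8 to 17) as Adrb3 was.

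Adrb1, the β receptor shared with stromal and vascular cells, was called at only 1 duration (chromosome 19, bases 56722199 to 56733113). The controls themselves were spread over 65.4, 64.6, 43.7, 36.7 and 31.3 CPM, and cold-exposed groups had means from 34.8 CPM after 3 days to 46.9 CPM after 6 hours. Only 1 of the 30 cold-exposed mice, after 2 days, was below the lowest control. The single call was a decrease after 3 days (log2 fold change -0.48, SE 0.18, edgeR adjusted p = 0.0462), a group whose mice had 37.5, 34.3, 35.0, 35.2 and 32.1 CPM, inside the range of the controls. It was lost without room temperature mouse 1, 2 or 3 and without any 1 of the 5 cold mice (-0.61 to -0.35), and DESeq2 did not make it (adjusted p = 0.0576). At the other durations the log2 fold changes ran from -0.42 after 2 days to -0.07 after 6 hours. The approximate 95% interval after 6 hours was -0.41 to 0.26, and after 1 day -0.49 to 0.21. It was -0.8 to -0.04 after 2 days, -0.83 to -0.13 after 3 days, -0.69 to 0.08 after 4 days and -0.66 to 0.04 after 5 days.

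Adra1a, the α1A receptor, was lower from 3 days on (chromosome 14, bases 66635251 to 66771168). Controls had 52.6, 53.4, 45.2, 47.9 and 24.1 CPM, mouse 5 standing well below the other 4. Mice after 6 hours ranged from 25.7 to 47.7 CPM, after 1 day from 34.1 to 42.5 CPM and after 2 days from 32.6 to 45.6 CPM, all within the span of the controls. Mice after 4 days had 21.3, 26.8, 25.6, 36.7 and 28.7 CPM and mice after 5 days 29.4, 25.8, 35.3, 28.8 and 26.7 CPM. Apart from mouse 5, all 4 controls were above every mouse of these 2 durations. The log2 fold change was -0.71 after 4 days (SE 0.18, edgeR adjusted p = 0.00613) and -0.63 after 5 days (SE 0.17, adjusted p = 0.00708), and both calls held in all 10 omissions of a mouse. After 3 days it was -0.55 (SE 0.18, adjusted p = 0.0262), a call lost without room temperature mouse 1, 2 or 4 or without cold mouse 1, 3 or 4 (-0.71 to -0.48). Values after 6 hours, 1 day and 2 days were -0.33, -0.21 and -0.13 and were not called. Without control mouse 5, the values after 6 hours (-0.48, adjusted p = 0.0126) and 1 day (-0.38, adjusted p = 0.0189) were.

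The 3 phosphodiesterases moved apart. Pde4d, a cAMP-specific enzyme (chromosome 13, bases 108449948 to 109953461), rose early and then declined. Its levels were 39.5, 37.7, 25.8, 33.6 and 27.0 CPM in controls, 95.4, 102, 78.9, 91.1 and 101 CPM after 6 hours and 106, 84.0, 88.8, 89.8 and 70.2 CPM after 1 day. Every mouse of these durations was well above every control. After 2 days the values were 69.9, 66.7, 93.4, 67.7 and 61.4 CPM and after 3 days 49.8, 68.4, 47.0, 41.2 and 49.6 CPM, still all above the controls. After 4 days they were 30.8, 37.4, 50.9, 51.9 and 49.7 CPM and after 5 days 50.8, 46.8, 45.9, 33.3 and 53.3 CPM, overlapping with them.

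Pde4d was 2.80 times as high as in controls after 6 hours (log2 fold change 1.49, SE 0.13, edgeR adjusted p = 7.3e-08) and 2.65 times after 1 day (1.41, SE 0.14, adjusted p = 1.3e-06). The rise was 1.12 (SE 0.15, adjusted p = 3.4e-05) after 2 days, 0.63 (SE 0.15, adjusted p = 0.00384) after 3 days and 0.46 (SE 0.15, adjusted p = 0.0179) after 5 days. After 4 days the value of 0.41 (SE 0.16) missed the threshold at adjusted p = 0.0519, and it passed without room temperature mouse 1 or 2 or without cold mouse 1 or 2 (0.33 to 0.52). Scaling by library size alone ended the call after 5 days (0.24, adjusted p = 0.239). The gene has 12 annotated coding transcripts with 12 start sites but 6 ends, and the count does not separate its long and short forms.

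Pde4b, of the same enzyme family (chromosome 4, bases 102087543 to 102607259), had the fewest reads of the 9 genes, 31 to 275 counts per library. Controls had 13.3, 19.1, 6.99, 12.9 and 11.5 CPM and the mice after 6 hours 19.8, 19.7, 21.7, 18.4 and 15.9 CPM. After 1 day the values were 23.8, 22.2, 18.7, 27.0 and 30.2 CPM, 4 of them above every control. Mice after 5 days had 15.6, 24.9, 11.8, 12.7 and 14.7 CPM, and only 1 of these was above every control. After 1 day the log2 fold change was 0.90 (SE 0.20, edgeR adjusted p = 0.00249), and this call held in all 10 omissions. Weaker calls after 6 hours (0.54, SE 0.19, adjusted p = 0.0298), 2 days (0.82, SE 0.28, adjusted p = 0.0384) and 4 days (0.66, SE 0.22, adjusted p = 0.0266) did not. The call after 6 hours was lost without room temperature mouse 3, 4 or 5 or cold mouse 2 or 3 (0.39 to 0.73). That after 2 days was lost without room temperature mouse 1, 3, 4 or 5 or cold mouse 1 or 2 (0.45 to 1.00), cold mouse 1 standing at 41.6 CPM where the other 4 had 13.9 to 22.0 CPM. That after 4 days was lost without room temperature mouse 3, 4 or 5 or cold mouse 3 (0.51 to 0.85). Scaling by library size alone ended all 3 of these calls, with log2 fold changes of 0.35, 0.64 and 0.52. Values after 3 days (0.50, SE 0.26) and 5 days (0.28, SE 0.23) were not called, the former becoming so without cold mouse 5 (0.69).

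Pde3b, through which insulin restrains lipolysis in adipocytes (chromosome 7, bases 114415281 to 114539251), dipped in the middle of the course. Controls had 164, 199.8, 173, 176 and 179 CPM, whereas mice after 6 hours ranged from 161 to 182 CPM and mice after 5 days from 135 to 198 CPM. After 2 days the values were 104, 120, 139, 166 and 141 CPM, and 4 of these were below every control. After 3 days they were 117, 135, 100.1, 158 and 133 CPM, all below the lowest control. The log2 fold change was -0.43 (SE 0.12, edgeR adjusted p = 0.0158) after 2 days and -0.48 (SE 0.12, adjusted p = 0.0038) after 3 days, calls that held in all 10 omissions. After 4 days it was -0.35 (SE 0.12, adjusted p = 0.0288), a call lost without room temperature mouse 2, 4 or 5 or cold mouse 1, 2 or 3 (-0.42 to -0.26) and not made by DESeq2 (adjusted p = 0.0501). Values after 6 hours (-0.09, SE 0.09), 1 day (-0.25, SE 0.11) and 5 days (-0.10, SE 0.11) were not called, although that after 1 day was without cold mouse 1 (-0.32).

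Rgs2 had the most uneven controls of the 9 genes (chromosome 1, bases 143999338 to 144004161). The 5 mice at room temperature had 109, 521, 153, 436 and 442 CPM, so mice 1 and 3 stood far below the other 3. After 6 hours the values were 203, 207, 268, 251 and 259 CPM and after 1 day 131, 241, 232, 264 and 165 CPM, all above the lowest control and below the 3 high ones. After 2 days they were 145, 136, 70.2, 172 and 67.9 CPM and after 3 days 115, 200, 49.98, 109 and 86.0 CPM. After 4 days they were 29.3, 82.2, 112, 113 and 58.0 CPM and after 5 days 73.0, 139, 92.2, 70.3 and 121 CPM. In each of the groups after 4 and 5 days 2 mice were above the lowest control and 3 were below it, and none reached the high controls.

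The fall of Rgs2 was called from 2 days on, with log2 fold changes of -1.51 (SE 0.38, edgeR adjusted p = 0.00688) after 2 days, -1.59 (SE 0.39, adjusted p = 0.00467) after 3 days, -2.10 (SE 0.40, adjusted p = 5.9e-04) after 4 days and -1.78 (SE 0.34, adjusted p = 4.4e-04) after 5 days. All of these calls held in every omission, and the log2 fold changes then ran from -2.33 to -1.30. The standard errors were the largest of the 9 genes. Values after 6 hours (-0.52, SE 0.30, adjusted p = 0.182) and 1 day (-0.71, SE 0.34, adjusted p = 0.114) did not pass. The former was called without room temperature mouse 1 (-0.74, adjusted p = 0.0171), and the latter without room temperature mouse 1 (-0.94, adjusted p = 0.0155) or 3 (-0.89, adjusted p = 0.0417).

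**Figure D2:**
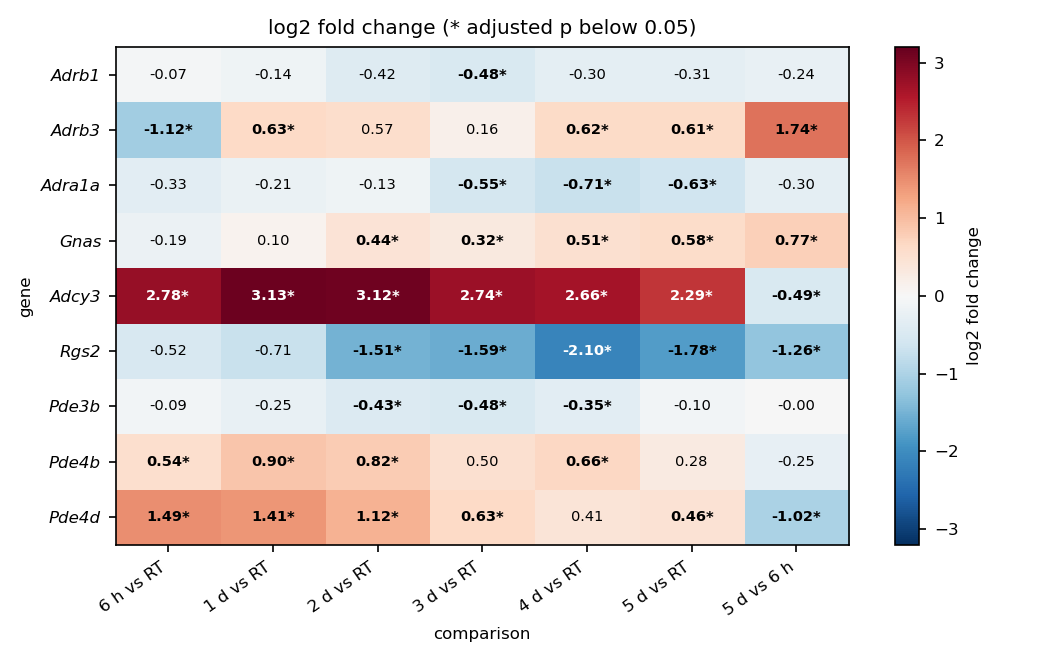
Log2 fold changes of the 9 genes (rows) after each duration of cold against room temperature (RT) and after 5 days against 6 hours (columns), on a color scale from blue (lower) to red (higher), with asterisks for an edgeR adjusted p below 0.05. Adcy3 was called higher in all 6 columns against RT, Rgs2 was called lower from 2 days on, and Adrb3 was the only gene called lower after 6 hours.

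A comparison within the cold, which uses no control mouse, asked which of the genes differed between the shortest and the longest exposure. After 5 days, Adrb3 and Gnas were higher than after 6 hours, and Adcy3, Pde4d and Rgs2 were lower. Of all genes tested, 19.0% were called higher and 16.9% lower. These are shares of calls, and the share of all genes whose mice did not overlap was not computed. Adrb3 was 3.33-fold higher (log2 fold change 1.74, SE 0.20, edgeR adjusted p = 1.4e-06), with every mouse after 5 days above every mouse after 6 hours, and the same was true of Gnas (0.77, SE 0.13, adjusted p = 7.7e-05). Pde4d (-1.02, SE 0.12, adjusted p = 2.1e-06) and Rgs2 (-1.26, SE 0.16, adjusted p = 2.8e-06) were lower, again with no overlap between the mice. Adcy3 fell by 0.49 on the log2 scale (SE 0.12, adjusted p = 0.00217), with 4 of 5 mice below every mouse after 6 hours. Each of these 5 calls held in all 10 omissions of a mouse. The other 4 genes were not called, with approximate 95% intervals of -0.47 to -0.01 for Adrb1, -0.59 to -0.01 for Adra1a, -0.21 to 0.20 for Pde3b and -0.61 to 0.10 for Pde4b. Adra1a passed without mouse 4 of the 6 hour group (-0.41) and Pde4b without mouse 2 of the 5 day group (-0.46).

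**Figure D3:**
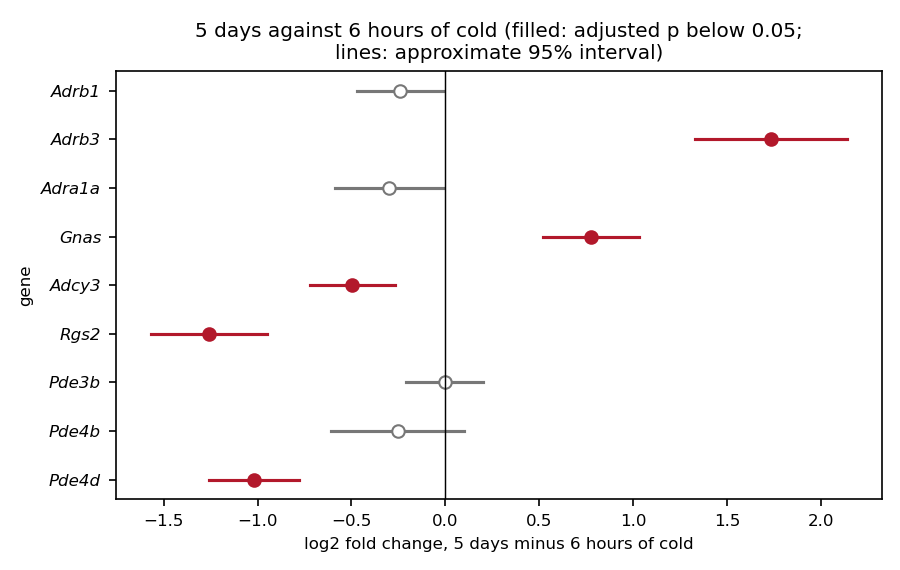
Log2 fold change of each of the 9 genes after 5 days against 6 hours of cold (5 mice each), with lines for the approximate 95% interval and filled red points for an edgeR adjusted p below 0.05. Adrb3 and Gnas lie right of 0, Pde4d, Rgs2 and Adcy3 left of it, and the intervals of Pde3b and Pde4b include 0.

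Over the 30 cold-exposed mice together, 8 of the 9 genes were called as varying among the 6 durations, as were 41.5% of all genes tested. The ratio of the highest to the lowest group mean was 3.35 for Adrb3 (adjusted p = 1.7e-06), 3.01 for Rgs2 (1.4e-04), 2.12 for Pde4d (6.3e-08), 1.79 for Adcy3 (2.9e-05) and 1.70 for Gnas (1.7e-04), all from edgeR's test of 5 coefficients. It was 1.48 for Adra1a (0.00426). The calls of Adrb1 (1.35, adjusted p = 0.0404) and Pde3b (1.33, adjusted p = 0.0396) were lost on leaving out any 1 of 22 and of 17 of the 30 mice, with adjusted p up to 0.14 and 0.0836 over all settings. Adrb1 was also not called by DESeq2's likelihood ratio test, with RLE factors, with library size alone, without mitochondrial genes and Gm42418, without a filter on counts or with all 35 mice in the fit. Pde4b was not called (1.53, adjusted p = 0.279) but passed without a filter on counts (adjusted p = 0.0209). When the 7 groups were put in order of their mean level for each gene, the mice of neighboring groups overlapped in 53 of 54 places, the exception being the step from controls to 5 days of cold for Adcy3. Sorting puts the closest means side by side, so overlap there was favored in advance and does not bear on groups farther apart. The same count was not made for other genes.

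Cell types other than brown adipocytes contribute to these libraries, and their marker lists moved at the same times as some of the genes. Of all genes, 21.5% were called higher and 21.0% lower after 6 hours, and 18.9% and 17.8% after 1 day. After 5 days 18.6% were called lower. The 6 endothelial markers summed to 273 to 336 CPM in controls and to 458 to 557 CPM after 6 hours, with 2 called higher and 1 lower. They summed to 547 to 638 CPM after 1 day, with 5 of 6 called higher, and stood at 251.5 to 406 CPM after 5 days. The 6 vascular smooth muscle markers summed to 48.0 to 71.9 CPM in controls, 85.3 to 103 CPM after 6 hours and 38.1 to 50.3 CPM after 5 days, with 4 of 6 called higher after 6 hours. This early rise fell at the time when Pde4d and Adcy3 were high, and its part in their levels was not tested. The 8 brown adipocyte markers summed to 15660 to 19830 CPM in controls and 24800 to 31980 CPM after 6 hours, with 2 called higher and 2 lower. Ucp1, which is on this list, rose from a mean of 1897 to 7216 CPM, and the median log2 fold change of the list was -0.02. The 8 macrophage and dendritic cell markers had 90.0 to 180 CPM in controls and 118 to 298 CPM after 3 days. The 5 adipose stromal markers had 394 to 517 CPM in controls and 303.9 to 570 CPM after 5 days, and the 4 Schwann cell markers 135 to 202 CPM in controls and 239 to 422 CPM after 3 days. The 5 skeletal muscle markers ran from 2.00 to 889 CPM over the 35 mice, with no call before 5 days, when 3 were lower. Of the 3 sympathetic axon markers, 1 had no read at all, and their sum never exceeded 1.14 CPM.

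**Figure D4:**
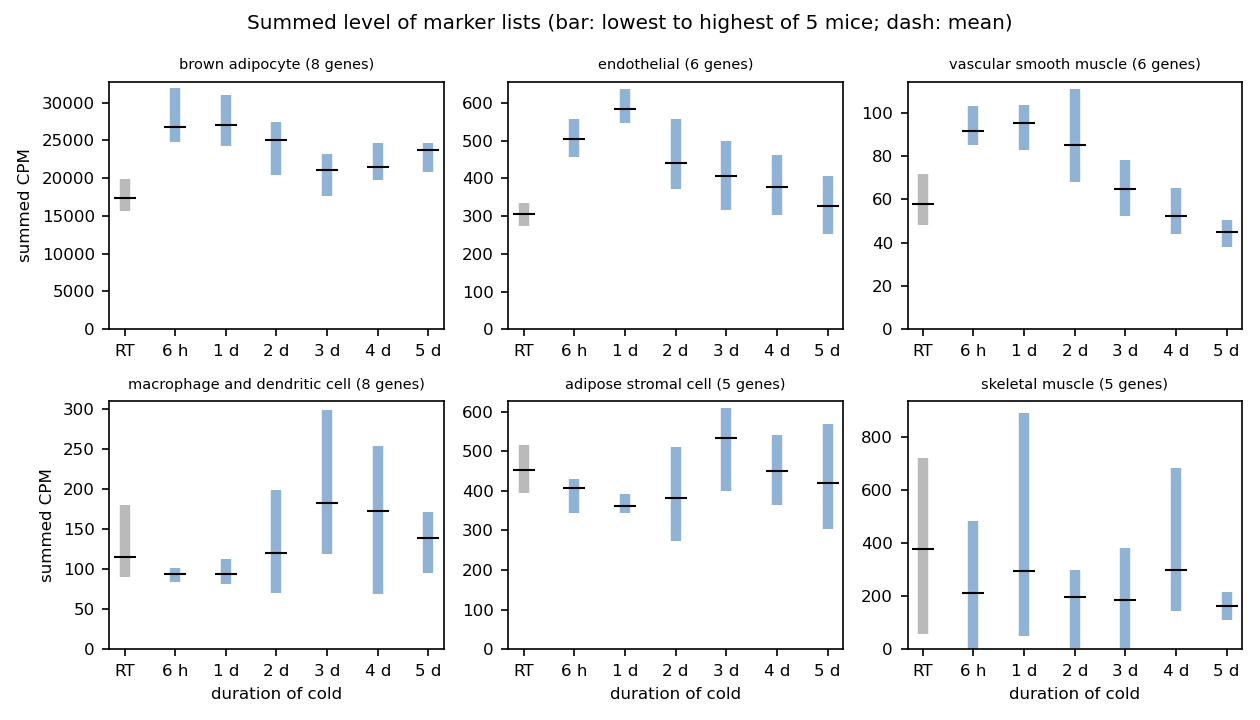
Summed CPM (linear axes from 0) of 6 marker lists at room temperature (RT, grey) and after each duration of cold (blue), with bars from the lowest to the highest of 5 mice and dashes for the mean. The sums of endothelial and vascular smooth muscle markers were high after 6 hours and 1 day and lower again after 5 days. Those of skeletal muscle markers varied widely within the groups before 5 days.

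As a description over the 35 mice, which share controls, durations and composition, the gene whose log2 CPM was most like each member was sought among 6171 genes with a mean of at least 50 counts. Adcy3 was nearest to mt-Tc, a mitochondrial transfer RNA (r = 0.965), and Dhrs9 (0.954). Pde4d was nearest to Ppil1 (0.912) and to Dgat1 (0.908), which completes triglyceride synthesis, and Gnas to C030006K11Rik (0.896) and Nipsnap2 (0.884). Pde3b was nearest to Thoc7 (0.861) and to Ndufb11 (0.846), a subunit of respiratory complex I. Adrb3 was nearest to Tmem53 (0.787) and Bnip3l (0.78), a mitophagy receptor. Rgs2 was nearest to Jmjd1c and Pnisr (both 0.789). Adra1a was nearest to Prdm16 (0.719), a determinant of brown fat identity, and Gramd1b (0.661). Pde4b was nearest to the basement membrane collagen Col4a2 (0.707) and Skil (0.706), and Adrb1 to Ccdc69 (0.658) and Upf3b (0.615). Among the 9 genes themselves, the highest correlation was that of Adcy3 with Pde4d (0.691) and the lowest that of Gnas with Rgs2 (-0.589).

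The rest of the pathway was read from a list of 107 further genes in 9 classes. After 6 hours 75 of them had enough reads to be tested, 23 rose (30.7%) and 17 fell (22.7%), beside 21.5% and 21.0% of all genes. After 5 days 15 of 75 rose and 15 fell, 20% each, beside 20.2% and 18.6% of all genes. Between these times the numbers were 20 and 17 of 73 (27.4% and 23.3%) after 1 day and 16 and 15 of 74 (21.6% and 20.3%) after 2 days. They were 19 and 17 of 77 (24.7% and 22.1%) after 3 days and 13 and 17 of 78 (16.7% and 21.8%) after 4 days. For all genes the shares were 18.9% and 17.8% after 1 day, 16.4% and 14.7% after 2 days, 18.3% and 15.5% after 3 days and 19.4% and 18.6% after 4 days. The 6 other adrenergic receptors on the list had too few reads to be tested at any duration. Up to 3 genes of each class, those with the largest change, are given below.

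The adenylyl cyclases other than Adcy3 moved in both directions. After 6 hours 4 of the 9 others could be tested, and 2 rose and 1 fell, beside 21.5% and 21.0% of all genes. Adcy9, a widely expressed cyclase, was at 50.2 ± 9.86 CPM in controls and fell to 19.9 ± 1.35 CPM within 6 hours (a log2 difference of -1.37, SE 0.14, edgeR adjusted p = 5.3e-07) and was at 15.6 ± 3.88 CPM after 5 days (-1.72, adjusted p = 7.3e-07). Adcy4 rose from 6.11 ± 1.44 to 17.97 ± 3.41 CPM (1.53, SE 0.19, adjusted p = 4.3e-06) and was back at 6.27 ± 1.75 CPM after 5 days, when it was not called. Adcy6 rose after 6 hours (0.41, adjusted p = 0.00702), which scaling by library size alone undid, and was lower than controls from 1 day on, with calls after 1 and 2 days that single mice could end, and with values after 3 days (-0.51, adjusted p = 0.0144), 4 days (-0.48, adjusted p = 0.00265) and 5 days (-0.58, adjusted p = 0.00413).

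Of the 13 other phosphodiesterases 9 were tested after 6 hours, 4 rising and 3 falling, and 8 after 5 days, when none rose and 1 fell. Of all genes, 21.5% rose and 21.0% fell after 6 hours, and 20.2% and 18.6% after 5 days. Pde7b, another cAMP-specific enzyme, was higher at 6 hours to 4 days, from 7.11 ± 3.86 CPM in controls to 25.1 ± 5.82 CPM after 1 day (log2 fold change 1.82, SE 0.28, edgeR adjusted p = 8.0e-05). Pde1a, a calcium-dependent enzyme, went the other way, from 30.8 ± 6.67 to 11.6 ± 2.59 CPM (-1.43, SE 0.17, adjusted p = 6.1e-06), and remained low after 5 days (-1.25, adjusted p = 1.1e-05). Pde10a rose after 6 hours alone (0.97, adjusted p = 0.00553) from 3.34 ± 0.745 to 6.68 ± 1.93 CPM, and its value after 5 days was below that after 6 hours (-1.32, adjusted p = 0.00137).

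In the class of CREB family factors and coactivators, 6 of 13 genes rose after 6 hours and none fell, where 21.5% and 21.0% of all genes did. Between 6 hours and 5 days none rose and 6 fell, where 19.0% and 16.9% of all genes did. Sik1, a kinase induced by cAMP that restrains CREB coactivators, went from 6.58 ± 4.66 to 36.4 ± 10.2 CPM (log2 fold change 2.43, SE 0.32, edgeR adjusted p = 9.3e-06) and was at 22.1 ± 5.51 CPM after 5 days (1.72, adjusted p = 4.9e-04). Crem, whose short product ICER represses cAMP-responsive genes, went from 6.95 ± 1.34 to 17.9 ± 1.58 CPM (1.33, SE 0.16, adjusted p = 2.7e-06) and fell between 6 hours and 5 days (-0.84, adjusted p = 1.5e-04). Creb5 rose after 6 hours (1.01, adjusted p = 7.8e-04) and also fell by 5 days (-1.08, adjusted p = 0.00315). Median log2 fold changes of the class were 0.43 after 6 hours and -0.01 after 5 days.

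Of the 19 PKA subunits, inhibitors and anchors, 15 were tested after 6 hours, 6 rising and 5 falling, beside 21.5% and 21.0% of all genes. The inhibitor Pkig was higher after every duration, at 3.11 ± 0.306 CPM in controls and 7.89 ± 1.88 CPM after 4 days (log2 fold change 1.30, SE 0.22, edgeR adjusted p = 2.3e-04), its call after 2 days being lost without cold mouse 1. The anchor Akap12 rose after 6 hours (1.30, adjusted p = 5.3e-06) and 1 day (1.04, adjusted p = 0.00107). The anchor Akap7 fell after 6 hours (-1.41, adjusted p = 2.7e-08), from 68.8 ± 7.65 to 26.4 ± 2.84 CPM, and was at 60.9 ± 4.82 CPM after 5 days, a rise over 6 hours of 1.21 (adjusted p = 7.1e-08). Among 25 G proteins and RGS genes 3 rose and 3 fell of 17 tested after 6 hours, beside the same shares of all genes. Gnao1 was lower after 6 hours (-0.39, adjusted p = 0.0333) but higher after 1 day (0.61, adjusted p = 0.00506) and 2 days (0.85, adjusted p = 2.5e-04). Rgs5, a marker of pericytes, fell after 6 hours (-0.40, adjusted p = 0.00184), 1 day (-0.89, adjusted p = 1.7e-06) and 5 days (-0.52, adjusted p = 5.5e-04). Rgs12 rose after 1 day (0.65, adjusted p = 0.043) and 3 days (0.86, adjusted p = 0.017), the call after 3 days being lost without cold mouse 1 or 4.

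Of the 8 receptor kinases and arrestins, which desensitize receptors, 1 rose and 1 fell after 6 hours and 2 rose and 1 fell after 5 days. Of all genes, 21.5% rose and 21.0% fell after 6 hours, and 20.2% and 18.6% after 5 days. Grk3 rose to 142 ± 17.4 CPM after 5 days from 73.1 ± 4.84 CPM in controls (log2 fold change 0.93, SE 0.10, edgeR adjusted p = 2.0e-06), and Arrb1 fell after 6 hours (-1.20, adjusted p = 0.00108) and 5 days (-0.86, adjusted p = 0.0029). Arrb2 was called lower after 1 day alone (-0.88, adjusted p = 0.0428), a call lost without room temperature mouse 1 or 5 or cold mouse 2, 3, 4 or 5. The cAMP exchange factor Rapgef3 rose after 6 hours (0.97, adjusted p = 6.7e-04) and was lower after 5 days than after 6 hours (-1.29, adjusted p = 1.7e-05). The cAMP exporter Abcc4 (-0.75, adjusted p = 0.00423) fell after 6 hours and Popdc2, which binds cAMP, after 1 day (-0.93, adjusted p = 5.2e-04), 2 of the 6 genes of their class falling and 1 rising after 6 hours.

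Of 8 listed genes that make, take up or degrade catecholamines, 3 could be tested, and 2 of them fell at every duration. At single durations 14.7% to 21.0% of all genes were called lower, and the share called lower at every duration was not computed. Slc22a3, a transporter that takes up catecholamines outside the nerve ending, went from 55.4 ± 8.16 CPM in controls to 25.7 ± 5.24 CPM at 6 hours (a log2 difference of -1.14, SE 0.14, edgeR adjusted p = 7.1e-06) and 20.4 ± 4.97 CPM after 5 days (-1.47, adjusted p = 1.4e-06). Maob, a monoamine oxidase, went from 70.7 ± 5.61 to 29.0 ± 3.86 CPM after 5 days (-1.31, SE 0.11, adjusted p = 1.1e-07). Maoa, the other monoamine oxidase, was called higher after 3 days (0.59, SE 0.20, adjusted p = 0.035), from 7.49 ± 1.49 CPM in controls to 11.3 ± 2.74 CPM. This call was lost without room temperature mouse 2, 4 or 5 or cold mouse 1, 3 or 5, by DESeq2 and with scaling by library size alone.

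**Figure D5:**
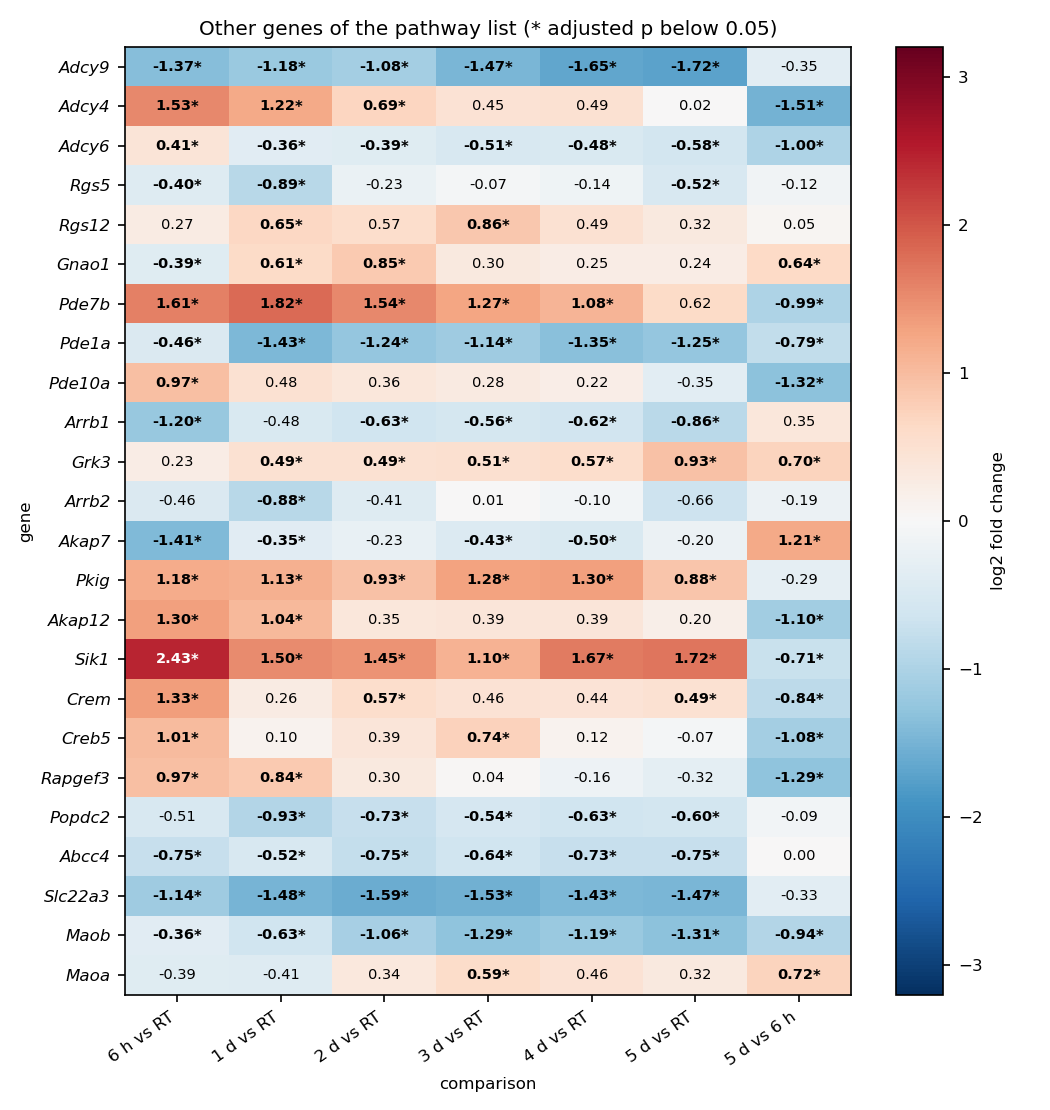
Log2 fold changes of 24 further pathway genes (rows) after each duration of cold against room temperature (RT) and after 5 days against 6 hours (columns). Blue is lower, red is higher and asterisks mark an edgeR adjusted p below 0.05. The genes had the largest change in their class among those called in at least 1 duration with a mean of at least 20 counts. Sik1 reached 2.43 after 6 hours, Slc22a3 and Adcy9 were called lower at every duration, and Grk3 was highest after 5 days.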

How the data were processed

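The authors prepared QuantSeq 3′ libraries from iBAT RNA, aligned the reads with STAR (v2.6.1d) to GRCm38 and counted them per gene with HTSeq (v0.11.2), and the deposited table holds these raw counts for 55421 genes in 35 mice. The counting used Ensembl gene models of a GENCODE release for GRCm38, its strand setting is not given in the sources used here, and coordinates were taken from a GENCODE annotation of the same build that may be of another release. Of the gene identifiers, 55154 had a symbol.

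Each duration of cold (5 mice) was compared with room temperature (5 mice), and 5 days with 6 hours, by edgeR's quasi-likelihood test (v4.0.16, R v4.3.3) after filterByExpr and TMM scaling, with Benjamini-Hochberg adjustment over all genes tested. The 30 cold-exposed mice were also fitted together. Adjusted p below 0.05 was the threshold for a call. SE was the absolute log2 fold change divided by the square root of F. CPM used TMM factors over all 35 libraries, and log2 CPM for correlations used a prior count of 2.

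Alternatives were DESeq2 (v1.42.0), RLE size factors, library size alone, no filter or at least 10 counts in at least 5 libraries, removal of mitochondrial genes and Gm42418, all 35 mice in one fit, replicate number as a block, and leaving out each mouse. The scripts were tested on simulated counts. A gene left out of the pathway list is not reported here. The members, gene lists, motifs and tests were chosen with earlier results of these data known. Besides the 9 members and Ucp1, the text names the 2 genes most correlated with each member (mean of at least 50 counts) and, from each pathway class, up to 3 genes with the largest change among those called in at least 1 duration with a mean of at least 20 counts. Precision is limited by depth (3846016 to 6047247 counts per library) and by 5 mice per group.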

Additional observations from a re-analysis of the deposited data

Results flagged for a closer look

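In 4 of the 63 groups formed by the 9 genes and 7 conditions, 1 mouse stood apart from the other 4 by Dixon's criterion, which chance alone meets in about 1 of 20 groups. Adrb3 had 203.1 CPM in 1 mouse after 4 days, where the next highest had 141.7 CPM. Adra1a had 24.07 CPM in room temperature mouse 5, where the next lowest had 45.19 CPM. Pde4b had 24.93 CPM in 1 mouse after 5 days, where the next highest had 15.56 CPM, and Pde4d had 93.36 CPM in 1 mouse after 2 days, where the next highest had 69.89 CPM.

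Of the 9 genes, 5 differed between 5 days and 6 hours of cold by edgeR's test of the difference itself, 2 higher and 3 lower. In the same test 19.0% of all genes were called higher and 16.9% lower. The log2 differences, 5 days minus 6 hours, were 1.735 for Adrb3, 0.774 for Gnas, -0.495 for Adcy3, -1.02 for Pde4d and -1.257 for Rgs2. Against room temperature, Adrb3 was called lower after 6 hours and higher after 5 days, and Adcy3 was called higher at both times.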

How the results depend on the processing

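Scaling by library size alone had the widest effect, since the median log2 fold change of all genes then ran from -0.25 after 5 days to -0.15 after 3 days against room temperature. Calls over all genes became 1342 higher and 3399 lower after 6 hours, 1140 and 3218 after 1 day, 931 and 2776 after 2 days and 1194 and 3347 after 5 days, where TMM gave 2280 and 2225, 2014 and 1901, 1748 and 1565, and 2167 and 1998. Of the 9 genes, 4 were then lower after 6 hours and 3 after 1 day, 2 were higher after 2 days, and 2 were higher and 4 lower after 5 days, and the uncalled Gnas value after 1 day changed sign (-0.117). With no filter on counts, 2 were lower after 6 hours and 1 after 1 day. Leaving out 1 mouse gave 1 to 2 lower after 6 hours, 0 to 1 lower after 1 day, 2 to 4 higher after 2 days and 2 to 4 lower after 3 days. The uncalled Adrb1 value after 6 hours then ran from -0.186 to 0.067, and the uncalled Pde3b value for 5 days against 6 hours from -0.058 to 0.071.

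Same-numbered mice of different groups did not deviate together (correlations from -0.188 to 0.144), and the mice were not treated as paired. With 5 mice per group this check is coarse and does not show that the replicate numbers are unrelated. With the replicate block, the comparison after 6 hours gave 2252 higher and 2238 lower genes, and 5 calls of the 9 genes changed. Adrb3 after 2 days passed (adjusted p = 0.0124), while Gnas after 2 days (0.0775) and 3 days (0.0591), Adra1a after 3 days (0.0515) and Pde4b after 4 days (0.0573) no longer did. In the comparisons of 2 groups DESeq2 changed 3 calls, those of Adrb3 after 2 days, Adrb1 after 3 days and Pde3b after 4 days. With all 35 mice in one edgeR fit, Pde4b after 6 hours (adjusted p = 0.0909) and Gnas after 3 days (0.071) lost their calls. Calls were gained there by Adrb1 (0.0437) and Adrb3 (0.049) after 2 days and Pde4d after 4 days (0.0358). With RLE factors Pde4d after 4 days was called (0.0494). With no filter, calls also went to Pde4d after 4 days (0.00578), Adrb1 (0.0316) and Adrb3 (2.0e-04) after 2 days and Pde4b after 3 days (0.0224). Gnas after 3 days (0.076) then lost its call. Removing mitochondrial genes and Gm42418, or asking for 10 counts in 5 libraries, changed none of the 9 genes' calls in the comparisons of 2 groups.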
